A study of Mus musculus with 36 samples.

Results

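The inositol phosphate kinases and phosphatases described here are 10 mouse genes, namely the kinases Itpkb, Itpkc, Ippk and Ip6k1 and the phosphatases Inpp1, Inpp4a, Inpp4b, Inpp5a, Inpp5d and Inpp5j. They were the rows of a gene-level count table of 54347 genes whose Ensembl identifiers map to these symbols. All 10 were among the 15340 genes that passed the filter on low counts (above 1 CPM, which is the count scaled to the library size, in at least 6 of 36 libraries), although Inpp5j passed through the macrophage libraries alone. The genes were chosen by their levels in the 12 groups and their differences under both compounds, with results of the same libraries known. Their values and the number that passed the threshold are therefore given as a description, without p-values, beside the share of all tested genes that passed it.

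RNA was sequenced from primary cells of male wild-type C57Bl/6 mice. Adipocytes were differentiated from the stromal vascular cells of inguinal fat pooled from several mice, macrophages from bone marrow in L929-conditioned medium, and skeletal myotubes from hindlimb myoblasts, whereas hepatocytes came from livers perfused with collagenase (substrain C57BL/6NHsd). Each cell type received PBS as control, 5 mM βOHB (β-hydroxybutyrate, a ketone body) or 5 mM butyrate (a fatty acid of gut bacteria and a known histone deacetylase inhibitor) for 6 h, with 3 libraries per group and 36 in all. The source field of the butyrate samples names butyric acid but adds the abbreviation bOHB, and the groups follow the sample titles, with which the treatment field (NaB) is in accord. βOHB carries a hydroxyl group that butyrate lacks, and the comparison asked whether the ketone body alters gene expression as butyrate does. The ages of the mice were not given, and nothing in the labels says whether the 3 libraries of a group came from separate animals or cultures, so that all errors here measure the spread between these libraries, which may be technical.

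Inositol phosphates are made when phospholipase C cleaves the membrane lipid phosphatidylinositol 4,5-bisphosphate into diacylglycerol and inositol trisphosphate (IP3), which opens calcium channels of the endoplasmic reticulum. IP3 is then either phosphorylated stepwise to the higher inositol phosphates and inositol pyrophosphates, or dephosphorylated and recycled to inositol. A second branch acts on the lipids themselves: phosphatases such as SHIP1 and the 4-phosphatases remove phosphates from the products of phosphoinositide 3-kinase, which carry the insulin signal in fat, muscle and liver and signals of immune receptors in macrophages.

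All 10 genes are protein-coding and lie on 6 chromosomes of GRCm38. Chromosome 1 holds Inpp4a (37299865 to 37410736), Inpp1 (52785427 to 52817688), Inpp5d (87620312 to 87720507) and Itpkb (180330485 to 180424802). Itpkc (27207172 to 27228661) and Inpp5a (139389109 to 139579652) lie on chromosome 7, and Inpp4b (81342556 to 82127914) on chromosome 8. Ip6k1 is on chromosome 9 (108002501 to 108048782), Inpp5j on chromosome 11 (3494375 to 3504821) and Ippk on chromosome 13 (49421249 to 49464573).

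Promoter windows of 300 bases (250 before and 50 from the start site on, RefSeq, GRCm38.p6) were found for 9 of the 10 genes, all except Inpp5j. The windows nearest to the annotated gene starts are shown for Inpp4a and Ippk, which rose under butyrate in all 4 cell types, and for Inpp5d and Inpp4b, which had the deepest falls. They are written 5′ to 3′ on the strand of the gene, with capitals for matches on either strand to 6 motifs. These were GGGCGG (the GC box), CCAAT (the CCAAT box), TATAAA (the TATA box), CACGTG (the E box), and GAGGAAG and CCGGAAG, which hold the core that ETS factors bind. None of these motifs contains another, and the 4 windows are chr1:37299588-37299887, chr13:49420992-49421291, chr1:87620062-87620361 and chr8:81342312-81342611, all on the + strand.
Inpp4a: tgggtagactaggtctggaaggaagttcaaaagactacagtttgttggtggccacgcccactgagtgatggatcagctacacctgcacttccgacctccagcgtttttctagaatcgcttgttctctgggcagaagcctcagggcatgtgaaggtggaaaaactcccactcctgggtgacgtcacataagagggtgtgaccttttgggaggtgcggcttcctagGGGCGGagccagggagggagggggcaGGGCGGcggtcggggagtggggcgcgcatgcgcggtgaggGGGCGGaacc
Ippk: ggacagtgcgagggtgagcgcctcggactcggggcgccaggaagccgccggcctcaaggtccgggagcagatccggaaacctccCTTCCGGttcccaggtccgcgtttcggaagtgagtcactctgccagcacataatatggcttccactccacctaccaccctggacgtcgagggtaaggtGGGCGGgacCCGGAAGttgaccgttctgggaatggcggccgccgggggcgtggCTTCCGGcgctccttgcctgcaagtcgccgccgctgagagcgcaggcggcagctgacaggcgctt
Inpp5d: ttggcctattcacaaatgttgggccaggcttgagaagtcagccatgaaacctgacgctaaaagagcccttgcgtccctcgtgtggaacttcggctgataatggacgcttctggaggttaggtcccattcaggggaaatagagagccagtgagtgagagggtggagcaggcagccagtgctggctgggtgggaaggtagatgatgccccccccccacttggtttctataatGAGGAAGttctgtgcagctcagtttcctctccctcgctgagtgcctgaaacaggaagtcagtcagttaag
Inpp4b: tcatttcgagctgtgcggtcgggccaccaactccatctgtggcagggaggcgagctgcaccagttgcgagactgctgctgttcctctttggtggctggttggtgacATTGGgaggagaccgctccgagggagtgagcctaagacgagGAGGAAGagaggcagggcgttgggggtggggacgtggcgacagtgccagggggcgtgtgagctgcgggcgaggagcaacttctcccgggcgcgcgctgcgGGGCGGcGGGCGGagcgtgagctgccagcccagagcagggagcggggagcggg

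The Inpp4a window held 3 GC boxes, of which 1 began at the start site, and none of the other motifs. The Ippk window held 1 GC box and 3 matches to CCGGAAG, and had 30 CpG dinucleotides against a median of 7 over all 32851 windows. In the Inpp5d window no GC box was found, and a single GAGGAAG began 20 bases before the start site, in a sequence with 6 CpG dinucleotides. The Inpp4b window held 2 GC boxes, 1 CCAAT box in reverse and 1 GAGGAAG. Of the 9 windows, 7 held a GC box and 0 a TATAAA, and the Itpkb window, with a GC content of 39.3% against a median of 52.7%, held no searched motif. Over all windows, GGGCGG occurred in 35.7%, CCAAT in 37.4%, TATAAA in 13.6%, CACGTG in 7.15%, GAGGAAG in 13.6% and CCGGAAG in 8.86%.

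The libraries held between 18366289 and 23221473 estimated counts. Each cell type carried its own defining markers, and genes of other marker lists were present as well. The 5 fibroblast markers (among them Col1a1, Col3a1 and Dcn) summed to 5979 to 6781 CPM in adipocyte controls. Their sum was 1509 to 1652 CPM in macrophage controls, 1133 to 1428 CPM in myotube controls and 19.8 to 24.1 CPM in hepatocyte controls. Macrophage markers (8 genes, among them Csf1r, Adgre1 and Ptprc) summed to 110.2 to 281 CPM in myotube controls and 336 to 398 CPM in adipocyte controls, against 17130 to 17311 CPM in macrophage controls. The 7 hepatocyte markers summed to 29.8, 539 and 123 CPM in the butyrate libraries of the myotubes, against 0 to 0.176 CPM in the myotube controls, and all 7 passed the test there. The third myotube library under βOHB had 23.3 CPM of them, against 0.0918 and 0.0444 CPM in the others of its group.

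In control cells, the leading gene of the set differed between cell types when levels were compared per kilobase of exon. Inpp5d, which encodes SHIP1, the 5-phosphatase of blood cells, was the highest in macrophages at 42.7 ± 0.473 CPM per kb (SD, n = 3). Inpp4b, a lipid 4-phosphatase, was the highest in myotubes at 28.0 ± 3.61 CPM per kb. Inpp5a, the 5-phosphatase that inactivates IP3, led in adipocytes at 12.2 ± 0.374 CPM per kb, and Ip6k1, which makes inositol pyrophosphates, led in hepatocytes at 12.7 ± 0.841 CPM per kb. Inpp5j, a proline-rich 5-phosphatase, was the lowest in adipocytes, myotubes and hepatocytes, whereas Inpp4b was the lowest in macrophages at 0.916 ± 0.0459 CPM per kb. These first and last places did not depend on whether the exon union or the longest transcript set the length.

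**Figure D1:**
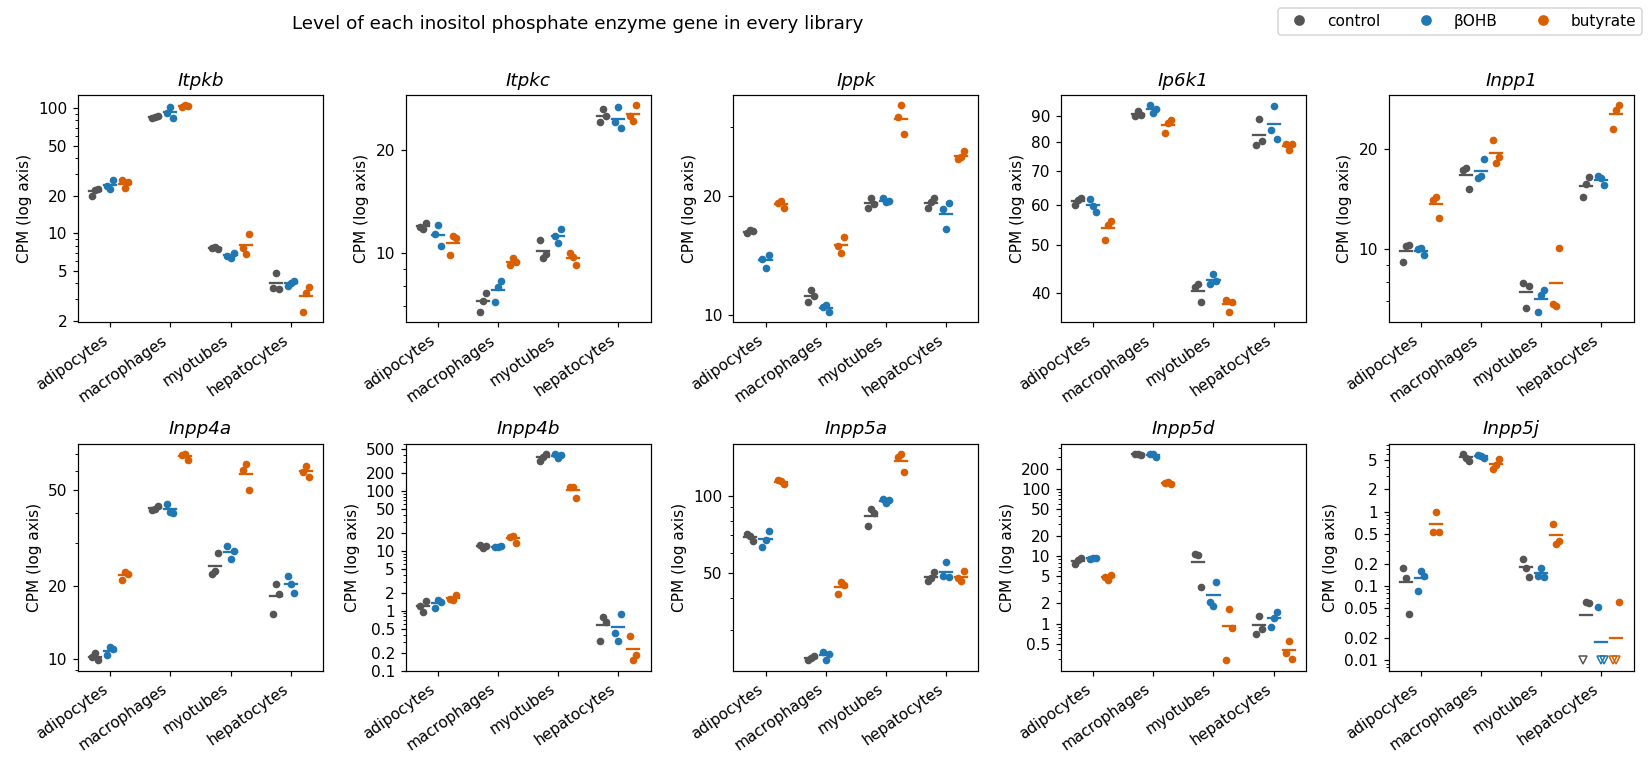
CPM (log axis) of the 10 genes in each of the 36 libraries by cell type, with grey points for control, blue for βOHB and orange for butyrate, bars at group means and open triangles at the foot of the axis for libraries with 0 counts. Orange points of Inpp4a and Ippk lie above the grey ones in every cell type, those of Inpp5d lie below them, and those of Inpp4b lie far below the controls in myotubes, at 76.0 to 116 CPM against 321 to 415.

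Butyrate changed 7 of the 10 in adipocytes and also 7 in macrophages, against 6 in myotubes and 3 in hepatocytes, at an adjusted p below 0.05 (edgeR). Among all 15340 tested genes, the shares that passed were 61.0%, 65.0%, 66.5% and 63.5%, so that the first 3 counts were near the background and the count in hepatocytes was below it. Few counts limited the calls in hepatocytes, where Inpp5j, Inpp4b and Inpp5d had 2, 29 and 46 counts in the 3 control libraries together. By direction, 5 rose and 2 fell in adipocytes (30.7% and 30.3% of all genes), 6 rose and 1 fell in macrophages (31.9% and 33.2%), 4 rose and 2 fell in myotubes (33.1% and 33.4%), and 3 rose and 0 fell in hepatocytes (31.0% and 32.4%; edgeR). The libraries of butyrate and control did not overlap for 10, 9, 6 and 4 of the genes in this order, beside 67.3%, 72.2%, 64.8% and 68.5% of all genes. Scaled to library totals alone, the split was 6 to 1 in adipocytes, because Itpkb passed and Ip6k1 did not, beside 5406 risen and 3793 fallen of all genes. In hepatocytes, Inpp1, Inpp4a and Ippk were the 3 called, and 1 more gene had an unadjusted p below 0.05. DESeq2 called 2 further genes there, Inpp4b and Inpp5d, both lower, beside 9724 of all 15334 genes in that fit.

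The median log2 fold change of the 10 genes under butyrate was 0.33 in adipocytes, 0.33 in macrophages and 0.08 in myotubes, where that of all genes was 0.00. Without Inpp5j, which had 8 counts in the adipocyte controls, the medians were 0.23, 0.39 and 0.08. In hepatocytes, where Inpp5j had at most 1 count in a library and no fold is given, the median of the other 9 was 0.00, and 5 of them lay above 0. Inpp4a and Ippk were the 2 genes raised in all 4 cell types, as were 12.5% of all tested genes. No gene was lowered in all 4 (edgeR, none also at an unadjusted p below 0.05; 12.7% of all tested genes), although 1, Inpp5d, was lowered in all 4 under 3 of 14 alternative settings, namely DESeq2, no filter on low counts and a fit of each cell type alone.

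**Figure D2:**
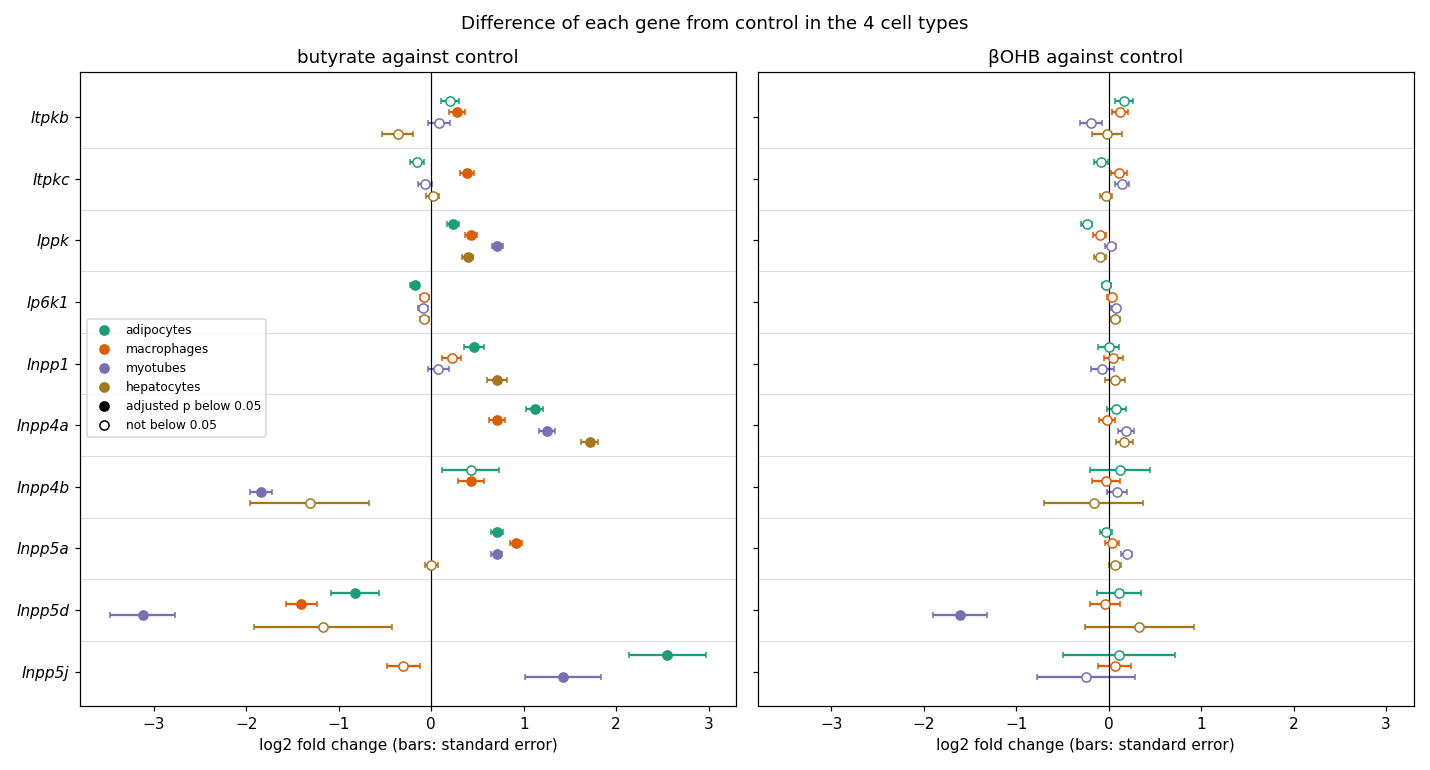
Log2 fold change against control for each gene in adipocytes, macrophages, myotubes and hepatocytes, under butyrate (left) and βOHB (right), with bars for the standard error and filled symbols for an adjusted p below 0.05. Under butyrate the values run from -3.12 (Inpp5d, myotubes) to 2.55 (Inpp5j, adipocytes), whereas under βOHB 1 symbol is filled, Inpp5d in myotubes at -1.61. Inpp5j in hepatocytes is left out, since it had at most 1 count in any library there.

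Among the kinases, Ippk rose in every cell type. It encodes the 2-kinase that makes inositol hexakisphosphate (IP6), the most abundant inositol phosphate of many cells. In myotubes, Ippk was at 18.7, 19.8 and 19.1 CPM in the control libraries and at 31.7, 34.0 and 28.7 CPM under butyrate, without overlap, a log2 fold change of 0.71 ± 0.06 (SE). The rise was 0.43 ± 0.06 in macrophages (10.8, 11.6 and 11.2 to 15.0, 14.3 and 15.8 CPM) and 0.39 ± 0.06 in hepatocytes (18.6, 19.4 and 19.8 to 24.8, 25.2 and 26.0 CPM). It was smallest in adipocytes, at 0.23 ± 0.06, where control libraries were at 16.1, 16.4 and 16.3 CPM and butyrate libraries at 19.3, 19.5 and 18.7 CPM. The adipocyte call was lost when no filter on low counts was applied.

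Itpkb and Itpkc encode 3-kinases that convert IP3 to inositol tetrakisphosphate and so end the calcium signal. Both were called as raised by butyrate in macrophages alone, although the difference between cell types was not tested. Itpkb, which was highest in macrophages, was at 83.5, 85.6 and 86.5 CPM in their controls and at 102, 105 and 103 CPM under butyrate, a log2 fold change of 0.28 ± 0.09. Itpkc was lowest in macrophages and went from 6.74, 7.26 and 7.66 CPM to 9.21, 9.67 and 9.39 CPM, a log2 fold change of 0.39 ± 0.08. The libraries of the groups did not overlap for either gene, as was so for 72.2% of all genes in this comparison.

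Outside macrophages neither gene was called. For Itpkb, they were 0.20 ± 0.10 in adipocytes, 0.09 ± 0.12 in myotubes and -0.37 ± 0.17 in hepatocytes on the log2 scale, and the adipocyte difference passed the threshold in 6 of 14 alternative settings, the hepatocyte difference, of opposite sign, in 3. For Itpkc, they were -0.15 ± 0.07 in adipocytes, -0.07 ± 0.08 in myotubes and 0.01 ± 0.07 in hepatocytes. Hepatocytes had the highest level of Itpkc, with 24.0, 26.4 and 25.0 CPM in control and 25.0, 24.3 and 27.0 CPM under butyrate, in overlapping ranges. Adipocyte libraries of Itpkc lay a little lower under butyrate, at 9.86, 11.2 and 11.1 CPM against 11.9, 11.7 and 12.2 CPM, and did not overlap.

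Ip6k1, which adds a further phosphate to IP6 to form an inositol pyrophosphate, fell in adipocytes, from 60.0, 61.3 and 61.7 CPM to 51.2, 54.7 and 55.7 CPM, a log2 fold change of -0.18 ± 0.05. In the other 3 cell types, the differences were -0.08 ± 0.05, -0.09 ± 0.05 and -0.08 ± 0.05 (macrophages, myotubes and hepatocytes), none of which passed. With library totals as the only scaling, which moved the median of all genes by 0.07 in adipocytes, 0.20 in macrophages and 0.13 in myotubes, the fall in adipocytes was no longer called and the differences in macrophages and myotubes were 0.15 and 0.05, in the other direction, the former now called as a rise.

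Among the phosphatases, Inpp4a showed the largest rises that were shared by all cell types. It encodes a type I 4-phosphatase that removes the 4-phosphate from phosphatidylinositol 3,4-bisphosphate, a product of the phosphoinositide 3-kinase pathway. In hepatocytes, Inpp4a was at 15.3, 20.5 and 18.6 CPM in control and at 59.4, 62.9 and 56.3 CPM under butyrate, a log2 fold change of 1.71 ± 0.09. In myotubes, 22.5, 23.0 and 27.5 CPM became 60.2, 63.8 and 49.9 CPM, a log2 fold change of 1.25 ± 0.09. The rise in adipocytes was 1.12 ± 0.10 (10.2, 10.6 and 9.88 to 21.2, 22.8 and 22.4 CPM). Macrophages, which had the highest control level, gave 0.71 ± 0.08 (41.5, 41.8 and 43.0 to 69.9, 70.3 and 66.5 CPM). No butyrate library overlapped a control library in any cell type, and all 4 calls held under every alternative setting that was run.

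Inpp4b, the type II enzyme of the same reaction, moved differently from its paralogue. Its myotube level stood far above that in other cells, with 321, 363 and 415 CPM in control libraries against 11.3 to 12.4 CPM in macrophages, 0.948 to 1.48 CPM in adipocytes and 0.314 to 0.799 CPM in hepatocytes. Butyrate lowered it in myotubes to 116, 114 and 76.0 CPM, a log2 fold change of -1.84 ± 0.11, whereas βOHB libraries stayed among the controls at 411, 358 and 402 CPM. In macrophages, Inpp4b rose from 12.4, 11.3 and 12.2 CPM to 17.0, 17.7 and 13.7 CPM, a log2 fold change of 0.43 ± 0.14. Among the macrophage libraries the 8 myotube markers summed to 6.99 to 14.8 CPM in control and to 21.2, 26.0 and 66.6 CPM under butyrate, and all 8 were raised, with the lowest Inpp4b level of the 3 butyrate libraries in the one of the highest sum. Their part in the Inpp4b rise was not tested. Inpp4b was the 1 gene of the set that was raised in 1 cell type and lowered in another, as were 19.3% of all tested genes, and 23.3% had all butyrate libraries above control in 1 cell type and below it in another.

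The 8 myotube markers summed to 24790 to 30295 CPM in myotube controls and to 23393, 22757 and 17280 CPM under butyrate, and 3 of the 8 passed the test, all downward (Myog, Ckm and Acta1). The log2 fold changes of the 8 ran from -1.65 (Myog, the myogenic factor myogenin) to 0.34 (Myh8, not called, with all butyrate libraries above control), and with library totals as the only scaling 1 marker rose and 1 fell. The third butyrate library was the lowest both for this sum and for Inpp4b, and the part of the markers in the Inpp4b difference was not tested. In bulk libraries such as these, fewer cells of a type and less RNA per cell cannot be told apart. In hepatocytes, Inpp4b had 29 counts in the 3 control libraries together and 13 under butyrate, a ratio of 0.397 with a 95% interval of 0.189 to 0.788 for counting error alone.

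Inpp5a rose in 3 of the 4 cell types. In adipocytes it went from 70.8, 69.7 and 66.7 CPM to 114, 114 and 110.4 CPM, a log2 fold change of 0.71 ± 0.06. In macrophages, where its level was lowest, 23.0, 23.5 and 23.8 CPM became 41.4, 46.1 and 45.1 CPM, a log2 fold change of 0.92 ± 0.07. Myotubes gave 0.71 ± 0.06 (76.5, 88.9 and 85.6 to 142, 145 and 123 CPM). Hepatocytes stood apart from these, with 46.7, 48.0 and 50.6 CPM in control and 47.9, 46.6 and 51.0 CPM under butyrate, a log2 fold change of 0.00 ± 0.07. The difference between cell types was not tested.

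Inpp1, which encodes the 1-phosphatase that acts late in the recycling of IP3 to inositol, rose in hepatocytes and adipocytes. Hepatocyte libraries went from 14.4, 15.7 and 16.4 CPM to 22.9, 26.2 and 27.0 CPM, a log2 fold change of 0.71 ± 0.10. Adipocyte libraries went from 9.18, 10.2 and 10.3 CPM to 14.1, 14.4 and 12.4 CPM, a log2 fold change of 0.46 ± 0.11. In macrophages the libraries did not overlap either (17.3, 17.5 and 15.2 against 21.2, 18.2 and 18.9 CPM), but the difference of 0.22 ± 0.10 did not pass, while it did in 8 of 14 alternative settings, limma-voom and DESeq2 among them. In myotubes the difference was 0.08 ± 0.12, with the third butyrate library at 10.1 CPM and the others at 6.87 and 6.76 CPM.

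Inpp5d showed the deepest fall of the set under butyrate, that in myotubes, and was called as lowered in 3 cell types. The fall of Inpp4b in myotubes was deeper than those of Inpp5d elsewhere. SHIP1, its product, removes the 5-phosphate from phosphatidylinositol 3,4,5-trisphosphate and is a marker of cells of the blood lineage. In macrophages, the control libraries were at 326, 327 and 320.3 CPM and the butyrate libraries at 121, 127 and 119 CPM, a log2 fold change of -1.41 ± 0.17. The spread within each group was small beside this gap, and the βOHB libraries, at 329, 324 and 296 CPM, overlapped the controls. Of the 8 macrophage markers, 5 also fell in the macrophages, and their sum went from 17130 to 17311 CPM in control to 10651 to 11196 CPM under butyrate. Inpp5d amounted to 1.87 to 1.90% of that sum in control and to 1.08 to 1.19% under butyrate. Most of that sum was Lyz2 (12749 ± 87.0 CPM in control and 8097 ± 236 CPM under butyrate, not called), and the log2 fold changes of the 8 markers ran from -1.10 (Ptprc) to -0.28 (Mrc1) with a median of -0.60.

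In adipocytes, where Inpp5d was far lower, it fell from 7.62, 8.66 and 9.54 CPM to 4.88, 4.45 and 5.25 CPM, a log2 fold change of -0.83 ± 0.26. The macrophage marker sum there went from 336 to 398 CPM to 306 to 325 CPM, and 2 of the 8 markers fell. Relative to the sum, Inpp5d was 2.27 to 2.40% in control and 1.45 to 1.61% under butyrate. The 8 markers did not move alike in adipocytes, with a median log2 fold change of -0.18 and 3 of them without overlap. Csf1r went from 47.2, 48.0 and 49.1 to 25.3, 24.4 and 26.9 CPM. Mrc1 overlapped, at 45.7, 56.8 and 57.6 against 58.8, 55.8 and 50.5 CPM. In hepatocytes, Inpp5d had 46 counts in the controls and 23 under butyrate, a ratio of 0.433 with a 95% counting interval of 0.250 to 0.729, and the log2 fold change of -1.17 ± 0.75 did not pass, while it did under those 3 settings. The 8 macrophage markers had a median log2 fold change of -0.72 there, with 1 called and 5 without overlap. Their sum was 93.0 to 116 CPM in control and 101 to 121 CPM under butyrate. The 4 endothelial markers summed to 66.1 to 72.3 CPM and 22.0 to 24.5 CPM. The part of such cells was not tested.

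In myotubes, Inpp5d was at 10.8, 10.3 and 3.43 CPM in the control libraries, 2.07, 1.82 and 4.12 CPM under βOHB and 0.285, 1.66 and 0.850 CPM under butyrate. The third control library was lower than the third βOHB library, so that these ranges overlapped, whereas all butyrate libraries lay below all controls. The log2 fold change was -3.12 ± 0.35 for butyrate and -1.61 ± 0.29 for βOHB. The latter was the 1 call among the 10 genes for βOHB in myotubes, where 2.91% of all tested genes passed and 2.56% fell. Over the alternative settings it ran from -2.07 to -1.36. It was not called when the myotube libraries were scaled and fitted alone, where 0 of all 15340 tested genes were called under βOHB. Without the third control library it was -1.98, and without the third βOHB library, which also held hepatocyte markers, -2.07.

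Macrophage markers moved with these values in the myotube libraries. All 8 of them fell under βOHB and all 8 under butyrate, with median log2 fold changes of -1.60 and -2.34. Their sum was 281, 227 and 110.2 CPM in the control libraries, 60.8, 45.2 and 108 CPM under βOHB and 18.3, 73.0 and 27.2 CPM under butyrate, with the third control and the third βOHB library side by side, as for Inpp5d. Relative to that sum, Inpp5d was 3.11 to 4.56% in control and 3.40 to 4.03% under βOHB, within the control range, and 1.56 to 3.12% under butyrate. The part of macrophage RNA in the myotube values of Inpp5d was not tested further.

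**Figure D3:**
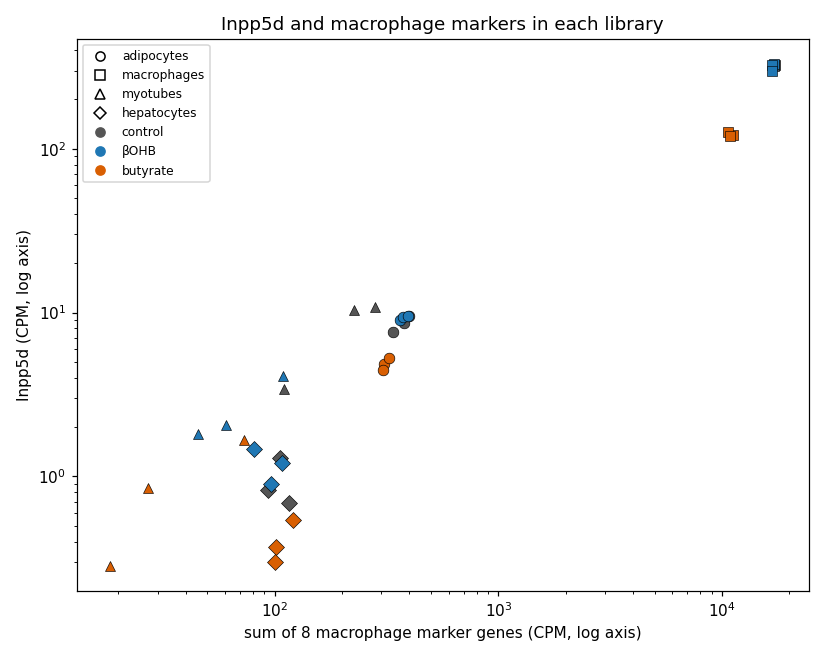
CPM of Inpp5d against the summed CPM of 8 macrophage markers in each of the 36 libraries (both axes log), with the symbol for the cell type and the colour for the treatment. Myotube libraries (triangles) run from 18.3 to 281 CPM of marker sum with Inpp5d rising from 0.285 to 10.8 CPM, and the macrophage butyrate libraries (orange squares) lie below and to the left of the other macrophage libraries.

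Inpp5j was near the limit of detection outside macrophages, so its folds rest on few counts. In adipocytes it had 8 counts in the control libraries together and 47 under butyrate, at 0.173, 0.129 and 0.0422 CPM against 0.542, 0.989 and 0.538 CPM. The ratio of the pooled counts was 6.01 with a 95% interval of 2.81 to 14.7, for counting error only. In myotubes, 12 counts in control and 35 under butyrate (0.229, 0.176 and 0.132 against 0.692, 0.364 and 0.403 CPM) gave a ratio of 2.71 with an interval of 1.38 to 5.74, and this call was lost without the first butyrate library. Macrophages, with 6.02, 5.39 and 4.84 CPM in control and 3.82, 4.29 and 5.07 CPM under butyrate, gave overlapping libraries and a log2 fold change of -0.30 ± 0.18 that did not pass.

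βOHB left 9 of the 10 genes uncalled in every cell type. The number of calls by edgeR was 0 in adipocytes, 0 in macrophages and 0 in hepatocytes, against 0.00652%, 0.0% and 0.00652% of all tested genes, and limma-voom and DESeq2 likewise called 0. At an unadjusted p below 0.05, edgeR counted 1, 0 and 0 in these cell types (7.15%, 2.33% and 5.51% of all genes) and 3 in myotubes (13.7%). The one in adipocytes was Ippk, also the 1 counted below an unadjusted p of 0.001 there (0.169% of all genes). It passed the adjusted threshold in 0 of 14 alternative settings. Since the genes were chosen with these differences known, this count is no test of Ippk. Ippk was at 13.9, 13.2 and 14.2 CPM under βOHB against 16.1, 16.4 and 16.3 CPM in control. This was a log2 difference of -0.24 ± 0.06, opposite in sign to its rise under butyrate. Non-overlapping libraries under βOHB were found for 1 gene in adipocytes, 1 in macrophages, 3 in myotubes and 0 in hepatocytes, beside 12.7%, 11.1%, 22.9% and 6.71% of all genes.

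Set directly against each other at the same dose and time, butyrate and βOHB gave a called difference for 7 genes of the set (adipocytes), 6 (macrophages), 9 (myotubes) and 4 (hepatocytes), where 59.5%, 64.7%, 66.0% and 63.5% of all tested genes passed. These contrasts share the butyrate libraries with those above. Ippk was higher under butyrate than under βOHB by 0.47 ± 0.06, 0.53 ± 0.06, 0.69 ± 0.06 and 0.49 ± 0.06 on the log2 scale in adipocytes, macrophages, myotubes and hepatocytes, and Inpp4a by 1.03 ± 0.10, 0.73 ± 0.08, 1.07 ± 0.08 and 1.55 ± 0.09. For Inpp5d in myotubes the difference was -1.51 ± 0.43, and it was not called without the third βOHB library or when the myotube libraries were fitted alone. The 9 in myotubes included Itpkb (0.28 ± 0.12), Itpkc (-0.22 ± 0.08) and Ip6k1 (-0.16 ± 0.05), which lost the call in 5, 7 and 5 of 14 alternative settings, and 5 of the genes passed at an unadjusted p of 0.001 (49.0% of all genes). In hepatocytes, Inpp5a differed by -0.06 (95% interval -0.19 to 0.07) and Itpkc by 0.04 (-0.09 to 0.18), so that no difference between the compounds was detected for them within these limits.

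The other genes of inositol phosphate and phosphoinositide metabolism were taken from a textbook list of 82 genes, of which 76 were tested. Under butyrate, 45 rose and 13 fell in adipocytes, 35 rose and 21 fell in macrophages, 44 rose and 16 fell in myotubes, and 40 rose and 13 fell in hepatocytes, beside the shares of all genes given above. Their median log2 fold changes were 0.45, 0.09, 0.33 and 0.20, where those of all genes were 0.00, 0.00, 0.00 and -0.01. With library totals as the only scaling, the macrophage split was 47 to 10, beside 6685 risen and 3339 fallen of all 15340 tested genes. In all 4 cell types together, 21 of the 76 rose throughout (12.5% of all tested genes) and 7 fell throughout (12.7%), while 16 rose in 1 cell type and fell in another (19.3% of all tested genes), and Pi4ka, a lipid 4-kinase named for being the 1 never called, was chosen after its values were seen.

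By function, the other inositol phosphate kinases and pyrophosphate enzymes (11 tested) rose in 7, 5, 7 and 6 cases and fell in 2, 1, 2 and 2 (adipocytes, macrophages, myotubes and hepatocytes). The phospholipases C (9 tested), which make IP3, rose in 7, 5, 7 and 5 cases and fell in 0, 2, 1 and 1. The IP3 receptors (3 tested) rose in 2, 2, 3 and 1 cases and fell in 0, 1, 0 and 1, and the other inositol polyphosphate 5-phosphatases (8 tested) split more evenly, with 5, 3, 3 and 3 risen and 3, 4, 3 and 3 fallen. The phosphoinositide 3- and 4-phosphatases (13 tested) rose in 8, 6, 9 and 8 cases and fell in 3, 4, 4 and 3. The phosphoinositide kinases (24 tested), the largest class, rose in 12, 9, 11 and 12 cases and fell in 4, 7, 5 and 1. The enzymes of inositol synthesis and the monophosphatases (5 tested) rose in 2, 3, 3 and 4 cases and fell in 0, 1, 0 and 0, and those of phosphatidylinositol synthesis (3 tested) rose in 2, 2, 1 and 1 and fell in 1, 1, 1 and 2. Among all tested genes, 30.7%, 31.9%, 33.1% and 31.0% rose and 30.3%, 33.2%, 33.4% and 32.4% fell in the same order.

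**Figure D4:**
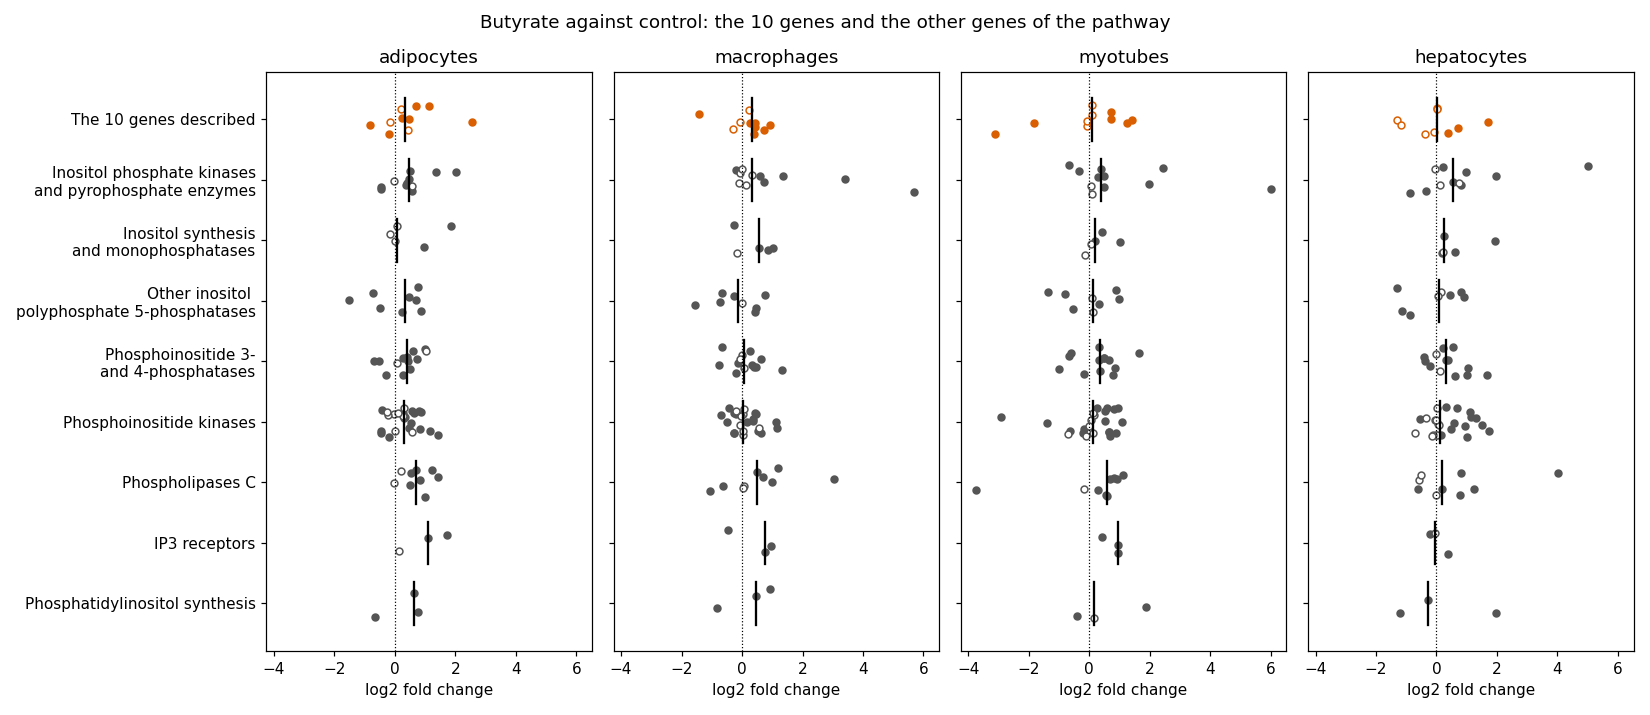
Log2 fold change under butyrate in each cell type for the 10 genes described (orange, top) and the 76 other tested pathway genes by function (grey), with filled symbols for an adjusted p below 0.05 and vertical bars at the medians. Points lie on both sides of 0 in most rows, and the phospholipases C have medians between 0.18 and 0.70. The points beyond 5 are Itpka, which had almost no counts in the controls of those cell types. Inpp5j in hepatocytes is left out.

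Itpka, the third gene for an IP3 3-kinase, rose throughout and far more in fold than Itpkb or Itpkc, outside adipocytes from levels near 0. It went from 1.50 ± 0.454 to 6.14 ± 0.626 CPM in adipocytes (adjusted p = 2.42e-08, edgeR) and from 0.224 ± 0.128 to 7.46 ± 0.420 CPM in hepatocytes (adjusted p = 2.30e-13, edgeR). In macrophages it had 2 counts in control and 133 under butyrate, a ratio of 58.6 with a 95% counting interval of 15.9 to 489, and in myotubes 1 and 96 counts. Nudt11, which encodes a phosphatase of inositol pyrophosphates, rose by 1.36, 1.99 and 1.97 on the log2 scale in adipocytes, myotubes and hepatocytes, and from 2 to 27 counts in macrophages. Impa2, an inositol monophosphatase, rose by 1.86, 1.02, 1.02 and 1.94 in the order of cell types used above.

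Plcd3, a phospholipase C, rose by 1.44, 3.04, 1.11 and 1.24 on the log2 scale in adipocytes, macrophages, myotubes and hepatocytes. In macrophages this was a rise from 1.51 ± 0.122 to 12.5 ± 1.08 CPM (adjusted p = 1.54e-17, edgeR). Pik3r2, a regulatory subunit of phosphoinositide 3-kinase, rose by 1.15, 1.15, 0.83 and 1.00. Pip5k1b, a kinase that makes phosphatidylinositol 4,5-bisphosphate, rose by 1.42, 1.12, 0.90 and 1.31, and its hepatocyte call was lost without the first control or the third butyrate library.

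The pathway genes that fell in all cell types were led by Inppl1, which encodes SHIP2, the widely expressed relative of SHIP1. Inppl1 fell from 1128 ± 52.9 to 439 ± 39.8 CPM in myotubes (adjusted p = 1.08e-16, edgeR), and by -1.50, -1.55 and -1.30 on the log2 scale in adipocytes, macrophages and hepatocytes. It was one of the genes that the study followed up from these samples, so its direction is not independent evidence. Synj2 and Inpp5e, 5-phosphatases of membrane lipids, fell by -1.13 to -0.72 and by -0.88 to -0.49. Cdipt, the synthase of phosphatidylinositol, fell by -0.65, -0.82, -0.40 and -1.21, with the largest fall in hepatocytes, from 124 ± 7.28 to 53.9 ± 2.18 CPM (adjusted p = 4.17e-17, edgeR). Mtmr2, a myotubularin, fell by -0.99 to -0.42, and Pip4p2, a lipid 4-phosphatase, by -0.67 to -0.37.

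Under βOHB, 5 of the 76 pathway genes (6.58%) were called in myotubes and all fell, beside 2.91% of all tested genes called and 2.56% lowered, while edgeR, limma-voom and DESeq2 called 0 in adipocytes, macrophages and hepatocytes (6, 2 and 6 at an unadjusted p below 0.05 by edgeR, beside 7.15%, 2.33% and 5.51% of all genes). The 5 were Pik3cg (log2 fold change -1.92 ± 0.30, adjusted p = 0.000183, edgeR), Plcb2 (-2.02 ± 0.35, adjusted p = 0.000816, edgeR), Pik3r5 (-1.34 ± 0.26, adjusted p = 0.00157, edgeR), Plcg2 (-0.70 ± 0.15, adjusted p = 0.00649, edgeR) and Pip4k2a (-0.29 ± 0.08, adjusted p = 0.0465, edgeR). Pik3cg, Pik3r5 and Plcb2 are known for their roles in blood cells, and the 8 macrophage markers fell in the same libraries, as given above for Inpp5d. None of the 5 was called when the myotube libraries were scaled and fitted alone, where adjusted p ran up to 0.490 (edgeR). That fit called 0 of all 15340 tested genes under βOHB. Over the alternative settings the log2 fold changes ran from -2.47 to -1.59 (Pik3cg), -2.64 to -1.71 (Plcb2) and -1.59 to -1.12 (Pik3r5). Those of Plcg2 ran from -0.91 to -0.55 and those of Pip4k2a from -0.35 to -0.21. Plcg2 and Pip4k2a lost the call in 4 and 7 of 14 settings, mostly without single libraries and for Pip4k2a also with a replicate block.

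The genes whose mean log2 CPM over the 12 groups ran most like that of Inpp5d were Cd48, Btk and Myo1g, each with Pearson's r of 0.996, which are genes of blood cells. For Inpp4b they were Cdh23 (r = 0.990), Mef2c (0.987), a muscle transcription factor, and Gm19391 (0.987), and for Itpkb they were Lilrb4a (0.992), BC028528 (0.991) and Ugt1a7c (0.991). For Inpp5j, the second gene was Mtmr6 (r = 0.982), a myotubularin of the pathway list, after Pianp (0.993) and before Gng4 (0.979). These values are over 12 group means that differ mainly by cell type, and are a description.

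The nearest profiles of the other genes were Necap1, Mad2l1bp and Rmnd5b for Inpp4a (0.970, 0.967 and 0.966), Trp53i11, 9330102E08Rik and Hist1h2bc for Inpp5a (0.977, 0.976 and 0.971), and Mtap, Dpy19l3 and Dhx29 for Ippk (0.966, 0.965 and 0.952). For Inpp1 they were Nxt1, Traf6 and Pctp (0.989, 0.988 and 0.982), for Itpkc Tert, Phykpl and Snhg6 (0.989, 0.983 and 0.982), and for Ip6k1 Ptprj, 4930522L14Rik and Man1b1 (0.989, 0.989 and 0.987). Within the set, the profiles most alike were those of Inpp5d and Itpkb (r = 0.942), both highest in macrophages, although butyrate lowered the former and raised the latter there.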

How the data were processed

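RNA was measured in 36 libraries, 3 for each combination of cell type and treatment, as stated in the labels. The deposited values are estimated counts per gene, which the authors made with Salmon 1.2.1 on GENCODE M25 transcripts of GRCm38.p6 and tximport 1.16.1. The methods describe scaling by transcript length and library size, which is not seen in the table. Symbols and positions came from GENCODE M21, where 54094 of the 54347 genes were found.

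Counts were rounded and tested in edgeR 4.0.16 (R 4.3.3) by the quasi-likelihood test, with TMM scaling and 1 mean per group over all 12 groups, so that all libraries share the spread. The filter kept the 15340 genes that exceeded 1 CPM in 6 or more libraries, and p-values were adjusted by Benjamini-Hochberg over all of them in each contrast at 0.05. The paper used limma-voom, run here as an alternative (limma 3.58.1), as were DESeq2 1.42.0, RLE factors, library totals alone, no filter, a filter of more than 20 counts in 6 libraries, the cell type's libraries only, a replicate block, unadjusted p below 0.001 and each library left out. Log2 CPM for profile likeness used a prior count of 2. Ratios of few counts have exact conditional 95% intervals, which cover counting error only. With 3 libraries against 3, an exact permutation test cannot go below p = 0.1 and none was used.

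The 10 genes and the lists were chosen with earlier results of these data known. Named pathway genes were those called in 1 direction under butyrate in all 4 cell types (the 6 per direction with the largest smallest change) and those called under βOHB (at most 5 of smallest p per cell type). For each of the 10 genes the 3 tested genes with the highest Pearson's r over the group means were also named, and the markers that moved with a gene. Sequences were read from a RefSeq promoter table, with the window nearest to the gene start. The scripts were tested on simulated counts, and no 2 libraries of a group agreed within sampling noise (36 pairs).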

Additional observations from a re-analysis of the deposited data

Results flagged for a closer look

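Inpp4b was marked because all 3 butyrate libraries lay above the controls in 1 cell type and below them in another. In adipocytes its log2 fold change was 0.42 (not called) and in myotubes -1.84 (called), a difference of 2.27. In macrophages it was 0.43 (called), again 2.27 above the value in myotubes. Itpkc was marked for the same reason, with 0.39 in macrophages (called) and -0.15 in adipocytes (not called), a difference of 0.54. None of these differences between cell types was tested, and 23.3% of all tested genes met the same criterion under butyrate.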

How the results depend on the processing

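Of 180 counts of called genes under alternatives other than leaving out a library, 6 differed from the reported count by more than 1.5 times. Among the 10 genes these were 1 at an unadjusted p below 0.001 for βOHB in adipocytes (0 reported), 5 at that threshold for butyrate against βOHB in myotubes (9 reported), 0 for βOHB in myotubes when the myotube libraries were fitted alone (1 reported), and 5 for butyrate in hepatocytes with DESeq2 and 5 without a filter (3 reported). For butyrate in hepatocytes, DESeq2 called 9724 of all 15334 genes, and the fit without a filter called 10031 of 32246. Among the pathway genes, βOHB in myotubes gave 0 when fitted alone (5 reported). That fit has fewer samples and called 0 of all 15340 tested genes under βOHB. Leaving out each library in turn gave 7 to 8, 7 to 8, 5 to 6 and 3 to 4 of the 10 genes under butyrate (adipocytes, macrophages, myotubes and hepatocytes), 0, 0, 1 and 0 under βOHB, and 6 to 7, 6 to 7, 7 to 9 and 3 to 5 between the compounds. For the pathway genes it gave 56 to 58, 53 to 55, 58 to 61 and 50 to 52 under butyrate, and 0, 0, 3 to 5 and 0 to 2 under βOHB, with 3 called without the first or second myotube control or the first βOHB library and 2 in hepatocytes without the second βOHB library. The shares of all tested genes in the fits that leave out a library are not given. Of 1680 log2 fold changes of the 10 genes under the alternatives, 1 of a called value changed sign, that of Ip6k1 between butyrate and βOHB in myotubes, from -0.16 to 0.036 with library totals as the only scaling. The deviations of libraries with the same replicate number correlated weakly (r from -0.264 to 0.273, above 0.1 in 4 of 36 pairs). The values above 0.1 included 0.22 and 0.17 between adipocyte control and βOHB. This check cannot tell, with 3 libraries per group, whether the numbers pair the samples. With the replicate number as a block, 8, 8, 6 and 4 of the 10 genes and 58, 56, 60 and 54 of the pathway genes were called under butyrate, beside 9362, 9933, 10188 and 9723 of all 15340 tested genes. In that fit no call of the 10 genes was lost. Under βOHB in myotubes, 4 pathway genes were called (5 reported), without Pip4k2a, beside 410 of all tested genes. The causes of these shifts were not tested. Genes with few counts (Inpp5j outside macrophages, Inpp4b and Inpp5d in hepatocytes) are limited by depth, and whether gene products or enzyme activities moved was not measured.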
